A study of Mus musculus with 13 samples.

Results

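The 9 genes described here, Pparg, Nr1h3, Maf, Spic, Tfec, Id1, Id2, Id3 and Cebpb, encode transcription regulators known from macrophages of peripheral tissues. They were chosen by name and are 9 of the 48587 genes of the count table. The libraries are total RNA of macrophages of the sciatic nerve (4 libraries), macrophages of the optic nerve (4 libraries) and microglia of the brain (5 libraries), all from mice of the strain C57BL/6J. The sciatic nerve belongs to the peripheral nervous system, and the optic nerve and brain to the central nervous system. The labels name no treatment, transgene, age or pooling for these libraries, and how the cells were isolated is not given in the sources used here. Nothing says that the libraries of a tissue came from separate animals, so the p-values measure the spread between libraries, which may be technical.

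Tissue-resident macrophages share the Ets factor PU.1 and differ in further factors that depend on where the cells live. Pparg and Nr1h3 encode PPARγ and LXRα, nuclear receptors that bind lipid-derived ligands and DNA as partners of RXR. Maf (c-Maf) is a large basic leucine zipper factor of mature macrophages, Spic encodes the Ets factor of haem-handling splenic red pulp macrophages, and Tfec encodes a macrophage member of the MiT family, whose relatives Tfeb and Mitf control lysosomal genes. Id1, Id2 and Id3 are helix-loop-helix proteins without a DNA-binding domain that hold E proteins off DNA and are known as targets of BMP signalling. Cebpb is a basic leucine zipper factor of monocytes, macrophages and inflammatory responses.

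Promoter windows of 5 of these genes are printed here because the results turn on their levels and because sequence motifs tied to known regulators lie in them. Each runs from 250 bases before to 50 bases after a RefSeq start on GRCm38.p6, and 7 of the 9 genes had such windows. Spic (chr10:88682974-88683273, minus strand) and Tfec (chr6:16898392-16898691, minus strand) were high in sciatic nerve macrophages. Id2 (chr12:25096043-25096342, minus strand), Id3 (chr4:136143572-136143871, plus strand) and Cebpb (chr2:167688665-167688964, plus strand) were higher in macrophages of both nerves than in brain microglia. Capitals mark matches to any of 7 motifs on either strand, and all else is in lower case.
Spic: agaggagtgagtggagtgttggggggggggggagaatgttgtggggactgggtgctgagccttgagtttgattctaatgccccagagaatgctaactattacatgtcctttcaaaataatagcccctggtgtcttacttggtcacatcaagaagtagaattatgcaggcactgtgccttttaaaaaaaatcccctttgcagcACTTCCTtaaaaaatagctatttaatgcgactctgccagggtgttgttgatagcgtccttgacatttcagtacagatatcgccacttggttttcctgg
Tfec: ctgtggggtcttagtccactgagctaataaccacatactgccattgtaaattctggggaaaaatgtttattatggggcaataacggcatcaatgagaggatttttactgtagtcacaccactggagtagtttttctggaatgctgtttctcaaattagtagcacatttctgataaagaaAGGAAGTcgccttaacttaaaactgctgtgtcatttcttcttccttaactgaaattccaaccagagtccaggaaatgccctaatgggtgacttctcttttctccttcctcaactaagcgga
Id2: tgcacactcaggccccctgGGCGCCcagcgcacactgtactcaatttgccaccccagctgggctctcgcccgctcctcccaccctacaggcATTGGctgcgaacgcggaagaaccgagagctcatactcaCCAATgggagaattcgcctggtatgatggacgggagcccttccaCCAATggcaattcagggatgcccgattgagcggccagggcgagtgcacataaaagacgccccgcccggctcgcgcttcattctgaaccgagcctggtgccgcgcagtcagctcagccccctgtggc
Id3: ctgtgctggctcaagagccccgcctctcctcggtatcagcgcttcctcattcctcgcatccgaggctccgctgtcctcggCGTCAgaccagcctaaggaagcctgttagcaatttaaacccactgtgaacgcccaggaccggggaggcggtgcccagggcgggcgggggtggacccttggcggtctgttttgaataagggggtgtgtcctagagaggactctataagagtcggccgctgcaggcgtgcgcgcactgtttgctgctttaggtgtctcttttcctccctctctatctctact
Cebpb: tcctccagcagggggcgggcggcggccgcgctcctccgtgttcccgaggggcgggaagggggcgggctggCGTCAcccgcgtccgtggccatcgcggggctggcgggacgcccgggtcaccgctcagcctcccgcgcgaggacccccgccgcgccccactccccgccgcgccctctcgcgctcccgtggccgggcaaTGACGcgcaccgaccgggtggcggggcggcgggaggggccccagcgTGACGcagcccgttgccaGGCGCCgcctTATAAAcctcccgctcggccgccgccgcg

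The motifs were chosen with these sequences in view, none contains another, and a match describes letters, not a bound site. AGGAAGT, the core of the PU.1 motif, was found once in the Spic window, 48 bases before the start on the strand opposite to the gene, and once in the Tfec window, 71 bases before the start. It lay in 9.35% of all 32851 promoter windows of the table. The Id2 window held 3 copies of the CCAAT box (CCAAT), found in 37.4% of all windows, and 1 GGCGCC, a GC-rich element tied to BMP-responsive Smads, found in 11.9%. The Cebpb window also held 1 GGCGCC, 11 bases after the start, and it lay in windows of Pparg and Nr1h3 that are not printed here. The Cebpb window held 3 copies of TGACG, the cAMP response element half-site, which lay in 20.8% of all windows, and the Id3 window held 1. Of the others, TATAAA, the TATA-box letters, was found in the Cebpb window, 21 bases after the start, and in 13.6% of all windows, while AGGTCA (nuclear receptor half-site, 16.3% of all windows) and TGACTCA (AP-1 site, 5.2%) were in none of the 5 windows. Windows of Pparg that are not printed here held AGGTCA, 28 and 9 bases before their starts, and TATAAA.

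The libraries held 10.9 to 23.5 M counts each. Brain library 1 stood apart with 10.9 M counts and 3.79% of them on mitochondrially encoded genes, while brain libraries 2 to 5 had 0.410% to 0.868%. Brain library 2 also differed from brain libraries 3 to 5, with a chi-square per degree of freedom of 130 to 162 against them, where these differed among themselves by 15.7 to 16.7. Summed microglia identity markers measured 32748 CPM in brain library 1 and 42346 CPM in brain library 2, but 60436 to 61145 CPM in the others. The 5 brain columns of the table were assigned by elimination, and all 10 microglia markers tested were higher in brain than in sciatic nerve. Csf1r, the receptor that macrophages need to survive, averaged 4756 CPM in the sciatic nerve, 7030 CPM in the optic nerve and 10965 CPM in the brain, where CPM is counts per 1e6 after scaling between libraries. Genes of the immediate early and dissociation response summed to 37448 to 43734 CPM in sciatic nerve libraries, 19086 to 23425 CPM in optic nerve libraries and 866 to 1119 CPM in brain libraries. All 20 of its tested genes were called higher in each nerve than in brain. This list therefore moves with every difference between nerve and brain given here. In sciatic against optic nerve 8 of the 20 were called higher and 12 were not called, beside 10.9% of all genes tested called higher. The part of this list in the differences between tissues was not tested.

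All 9 genes passed the filter on low counts over the 3 tissues together, which left 13246 genes. With only the tissues compared, Id1 failed the filter in sciatic nerve against brain, where 7 of the 9 then rose. Pparg, Spic and Tfec failed it in optic nerve against brain, where 5 then rose and 1 fell. The counts that follow are from the fit of all 13 libraries. In sciatic nerve macrophages against brain microglia, 8 of the 9 genes rose, and Maf was not called at 0.05 (p-values from the quasi-likelihood test of edgeR, adjusted by Benjamini and Hochberg over all genes tested). Of all genes tested, 48.4% were called in this comparison, 24.1% as higher and 24.3% as lower. For 7 of the 9 genes every library of 1 tissue lay beyond every library of the other, as for 41.3% of all genes tested. In optic nerve macrophages against brain microglia, 6 of the 9 rose, Maf and Tfec fell, and Spic was not called, beside 36.9% of all genes called, 19.6% as higher and 17.4% as lower. For 7 of the 9 the libraries did not overlap, against 31.8% of all genes. In sciatic against optic nerve macrophages, Pparg, Maf, Spic, Tfec and Id3 rose, Id2 fell, and Nr1h3, Id1 and Cebpb were not called, beside 21.8% of all genes called, 10.9% as higher and 10.9% as lower. Here too 7 of the 9 did not overlap, against 29.9% of all genes. Every sciatic nerve library was above every other library for Pparg, Spic, Tfec and Id3, whereas Id1 and Id2 were highest in the optic nerve and Maf was not higher in the sciatic nerve than in brain, so the name of peripheral factors describes part of the set.

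The median log2 fold change of the 9 genes was 3.64 in sciatic nerve against brain, 3.26 in optic nerve against brain and 1.78 in sciatic against optic nerve, while the medians of all genes tested were -0.09, -0.08 and 0.00. Both comparisons with brain share the brain libraries. Scaling by library totals alone moved the median of all genes by -0.45, -0.25 and -0.19 in these comparisons. The split of calls over all genes, 3191 higher and 3219 lower in sciatic nerve against brain, was then 2242 and 4942. It was 1910 and 3258 in optic nerve against brain, where the main split was 2590 and 2303, and 1151 and 2063 in sciatic against optic nerve, where it was 1447 and 1445. In bulk libraries such as these, fewer cells of a type and less RNA per cell cannot be told apart.

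**Figure D1:**
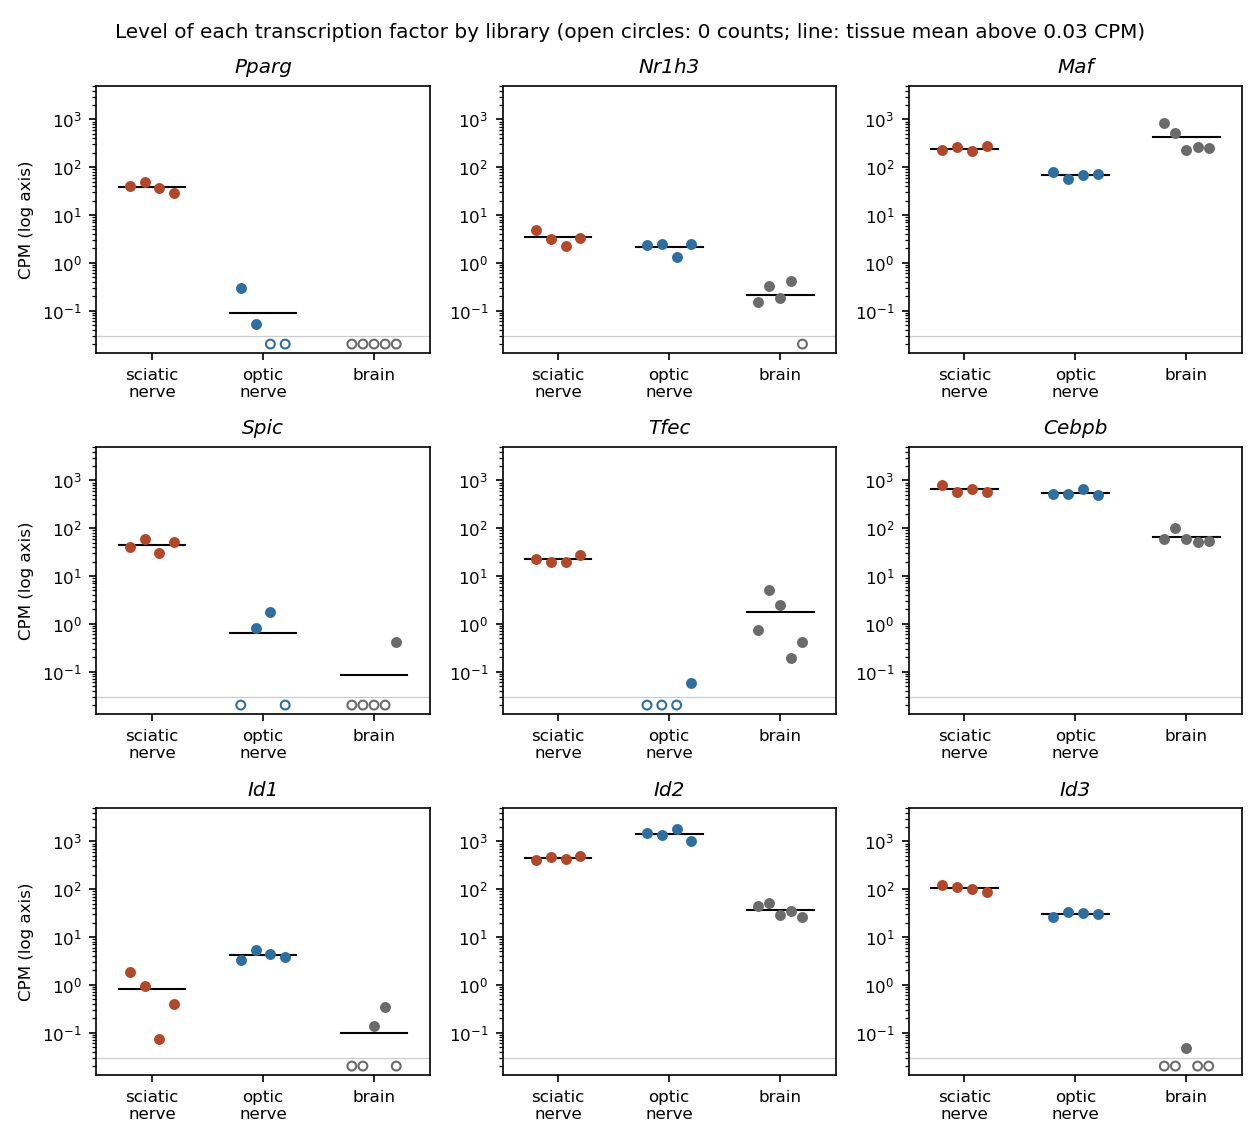
Level of each gene in CPM on a log axis by library, for 4 sciatic nerve, 4 optic nerve and 5 brain libraries; points are libraries, open circles stand for 0 counts and black lines for tissue means above 0.03 CPM. Pparg, Spic, Tfec and Id3 are highest in sciatic nerve, Cebpb and Nr1h3 lie at like levels in both nerves, Id1 and Id2 are highest in optic nerve, and the 2 highest Maf values are brain libraries 1 and 2.

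Pparg, the receptor of alveolar macrophages and fat cells that drives lipid uptake and storage genes, was read in sciatic nerve macrophages and hardly elsewhere. It measured 41.3, 47.9, 37.6 and 29.0 CPM in the sciatic nerve libraries, 0.302, 0.0538, 0 and 0 CPM in the optic nerve libraries and 0 in all 5 brain libraries. Every sciatic nerve library was above every library of the other tissues. A count of 0 over the 5 brain libraries allows up to 0.0265 CPM (3 counts over the group, counting error only), so Pparg was at least 1469-fold higher in sciatic nerve than in brain (edgeR adjusted p = 6.84e-07). Against optic nerve, where all 4 libraries together held 7 counts, it was 438-fold higher by the means (log2 fold change 8.60, SE 0.77, edgeR adjusted p = 1.10e-05). Without optic nerve library 1 that log2 fold change was 10.59 (adjusted p = 2.94e-06). The optic nerve was called at least 3.35-fold higher than brain (edgeR adjusted p = 0.0361), but 6 of its 7 counts were in library 1, and without that library the adjusted p was 0.242.

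Fat cell markers were low in the same libraries. Adipoq, the hormone gene of fat cells, averaged 0.376 ± 0.555 CPM in the sciatic nerve and was at 0 in optic nerve and brain (SD, n = 4, 4 and 5), Plin1, the lipid droplet coat gene of fat cells, was at 0 in both nerves, and Cidec, a lipid droplet fusion gene, averaged 0.203 ± 0.253 CPM in the sciatic nerve. The summed level of 6 such markers was 15.7 to 35.1 CPM in the sciatic nerve, 23.3 to 31.5 CPM in the optic nerve and 28.6 to 108 CPM in the brain, most of it from Lipe, a lipase gene that many cells use. Fibroblast markers were also highest in sciatic nerve. The 8 of them summed to 197 to 412 CPM in the sciatic nerve, 13.2 to 42.4 CPM in the optic nerve and 2.42 to 7.83 CPM in the brain, mostly from Gsn, and 6 of 6 tested were higher in sciatic nerve than in brain. Dendritic cell markers summed to 361 to 456 CPM in the sciatic nerve, 15.1 to 59.7 CPM in the optic nerve and 2.99 to 7.63 CPM in the brain, mostly from the lectin gene Cd209a, with Clec9a at 0.0837 CPM and Flt3 at 4.64 CPM in the sciatic nerve. Monocyte markers summed to 395 to 570 CPM, 16.4 to 65.5 CPM and 2.17 to 10.1 CPM in the same order, mostly from the chemokine receptor gene Ccr2, with Ly6c2 at 0.0692 CPM and Chil3 at 0 in sciatic nerve. The part of these markers in the levels of the 9 genes was not tested.

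Genes known as PPARγ targets were mostly higher in sciatic nerve as well. Of 9 tested targets 8 rose and 1 was not called in sciatic nerve against brain (median log2 fold change 3.59), 5 rose and 4 were not called in optic nerve against brain (2.04), and 6 rose and 3 were not called in sciatic against optic nerve (1.56). Cd36, the fatty acid and oxidised lipoprotein receptor, averaged 3291 ± 208 CPM in the sciatic nerve, 12.7 ± 6.19 CPM in the optic nerve and 0.769 ± 1.14 CPM in the brain. That is a log2 fold change of 12.12 (SE 1.00) in sciatic nerve against brain and 8.01 (SE 0.93) against optic nerve. Fabp4, a fatty acid carrier, averaged 7.86 ± 4.55 CPM in the sciatic nerve and 0.492 ± 0.652 CPM in the optic nerve and had 0 counts in all brain libraries, which makes it at least 296-fold higher in sciatic nerve than in brain. Plin2, a lipid droplet coat protein, averaged 557 ± 117 CPM in the sciatic nerve, 189 ± 28.2 CPM in the optic nerve and 46.1 ± 5.50 CPM in the brain, and Lpl, lipoprotein lipase, 495 ± 146, 218 ± 38.6 and 47.8 ± 12.7 CPM in the same order. Both rose in all 3 comparisons.

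The partners of PPARγ had another pattern. Of 6 tested partners and coregulators 3 fell and 3 were not called in sciatic nerve against brain, 1 fell in optic nerve against brain, and 1 fell in sciatic against optic nerve. Rxra, the gene of its obligate partner RXRα, averaged 19.3 ± 10.7 CPM in the sciatic nerve, 19.5 ± 7.28 CPM in the optic nerve and 49.6 ± 9.73 CPM in the brain (log2 fold change -1.36, SE 0.34 in sciatic nerve against brain). Rxrb fell to 48.0 ± 4.08 CPM in the sciatic nerve, against 83.9 ± 18.6 CPM in the optic nerve and 85.1 ± 9.35 CPM in the brain. Of the other 2 receptors of the family, Ppara was at 0 in all 13 libraries, and Ppard averaged 1.27 ± 0.82 CPM in the sciatic nerve, 3.23 ± 0.23 CPM in the optic nerve and 3.34 ± 1.77 CPM in the brain without a call.

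Nr1h3, the oxysterol receptor gene, was low in every library but higher in both nerves than in brain. It measured 4.90, 3.18, 2.23 and 3.33 CPM in the sciatic nerve, 2.37, 2.42, 1.34 and 2.43 CPM in the optic nerve and 0.151, 0.320, 0.187, 0.416 and 0 CPM in the brain. All nerve libraries were above all brain libraries, and the nerves overlapped. The log2 fold change was 3.93 (SE 0.78, edgeR adjusted p = 7.52e-04) in sciatic nerve against brain and 3.26 (SE 0.76, edgeR adjusted p = 0.00412) in optic nerve against brain. Between sciatic and optic nerve it was 0.67 (SE 0.75, edgeR adjusted p = 0.595), with a 95% interval from -0.93 to 2.28 that allows a change of over 2 in log2. These levels rest on 202 counts over the sciatic nerve libraries, 157 over the optic nerve libraries and 26 over the brain libraries. Nr1h2, the gene of the related receptor LXRβ, averaged 56.6 ± 14.6 CPM in the sciatic nerve, 59.3 ± 13.5 CPM in the optic nerve and 40.8 ± 9.31 CPM in the brain and was called in no comparison.

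Known LXR targets split into opposite directions. Of 11 tested, 4 rose and 7 fell in sciatic nerve against brain, 4 rose and 6 fell in optic nerve against brain, and 4 rose and 7 fell in sciatic against optic nerve, with median log2 fold changes of -1.31, -1.23 and -0.93. The cholesterol exporters fell in both nerves against brain. Abca1 averaged 109 ± 27.1 CPM in the sciatic nerve, 49.5 ± 16.3 CPM in the optic nerve and 252 ± 15.1 CPM in the brain, and Abcg1 averaged 2.90 ± 2.25, 22.0 ± 7.55 and 113 ± 25.1 CPM in the same order. The secreted lipid carriers went the other way. Apoe, apolipoprotein E, averaged 25973 ± 5802 CPM in the sciatic nerve, 9503 ± 1076 CPM in the optic nerve and 307 ± 101 CPM in the brain (log2 fold change 6.40, SE 0.25 in sciatic nerve against brain). Pltp, the phospholipid transfer protein gene, averaged 2040 ± 371 CPM in the sciatic nerve, 63.8 ± 29.2 CPM in the optic nerve and 0.991 ± 0.674 CPM in the brain (log2 fold change 10.91, SE 0.59). The lipid enzyme genes Lpcat3 and Scd2 fell with Abcg1, at log2 fold changes of -3.06 (SE 0.29) and -4.21 (SE 0.40) in sciatic nerve against brain.

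Maf, whose product helps keep mature macrophages out of the cell cycle, was not higher in either nerve than in brain. It measured 229.6, 264.4, 216.5 and 272.9 CPM in the sciatic nerve, 79.9, 55.7, 69.6 and 72.8 CPM in the optic nerve and 837, 529, 231, 262 and 254 CPM in the brain. Optic nerve libraries lay below all others, while sciatic nerve libraries overlapped with brain libraries 3 to 5 and lay below brain libraries 1 and 2. Maf fell in optic nerve against brain (log2 fold change -2.60, SE 0.35, edgeR adjusted p = 4.82e-05) and rose in sciatic against optic nerve (log2 fold change 1.82, SE 0.35, edgeR adjusted p = 0.00139). In sciatic nerve against brain the log2 fold change was -0.78 (SE 0.33, edgeR adjusted p = 0.0612). Without brain libraries 1 and 2 it was -0.02 there (adjusted p = 0.909) and -1.83 in optic nerve against brain (adjusted p = 3.82e-07). With library totals in place of scaled sizes it was -1.26 in sciatic nerve against brain and was called lower (adjusted p = 0.00791).

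The small Maf genes, whose products lack a transactivation domain, differed among themselves. Maff averaged 148 ± 40.2 CPM in the sciatic nerve, 165 ± 43.9 CPM in the optic nerve and 0.325 ± 0.298 CPM in the brain (log2 fold changes 8.99, SE 0.43, and 9.15, SE 0.44, against brain). Mafk rose by 3.72 (SE 0.24) and 4.06 (SE 0.25) on the same scale, and Mafg was called in no comparison. Between sciatic and optic nerve these 3 genes had log2 fold changes from -0.35 to -0.15 without a call.

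Genes listed as c-Maf targets or as marks of resident macrophages were higher in sciatic nerve. Of 12 tested, 9 rose and 2 fell in sciatic nerve against brain (median log2 fold change 10.24), 9 rose and 3 were not called in optic nerve against brain (5.71), and 9 rose and 3 fell in sciatic against optic nerve (4.09). Cd163, the haemoglobin scavenger receptor, averaged 1323 ± 221 CPM in the sciatic nerve and 29.5 ± 17.3 CPM in the optic nerve with a single count in brain. Il10, the anti-inflammatory cytokine gene, averaged 222 ± 65.4 and 3.18 ± 2.78 CPM in the nerves in that order and had 0 counts in brain. F13a1, coagulation factor XIII, averaged 4916 ± 824 CPM in the sciatic nerve, 164 ± 74.5 CPM in the optic nerve and 1.57 ± 3.25 CPM in the brain. Lyve1, a hyaluronan receptor of perivascular macrophages, averaged 857 ± 31.6, 79.5 ± 24.0 and 0.759 ± 1.37 CPM in the same order. Timd4, a receptor for phosphatidylserine, averaged 237 ± 33.3 CPM in the sciatic nerve and 30.2 ± 7.19 CPM in the optic nerve and had 0 counts in all brain libraries, which makes it at least 8953-fold higher in sciatic nerve than in brain. The 3 complement genes C1qa, C1qb and C1qc all fell in sciatic against optic nerve, by 0.61, 0.72 and 0.56 in log2 (SE 0.13, 0.17 and 0.15). In the brain libraries, where Maf measured at least 231 CPM, Timd4 had 0 counts and Lyve1 at most 3.17 CPM. Other genes of the list were high there. All 12 together summed to 23048 to 30231.1 CPM in brain libraries. The sum was 39230.5 to 43008.5 CPM in sciatic nerve libraries and 29223.3 to 38311.6 CPM in optic nerve libraries.

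Spic, the PU.1 relative of red pulp and bone marrow macrophages that recycle iron, was high in every sciatic nerve library. It measured 40.9, 59.0, 30.4 and 52.3 CPM in the sciatic nerve, 0, 0.807, 1.73 and 0 CPM in the optic nerve and 0, 0, 0, 0 and 0.418 CPM in the brain. Sciatic nerve libraries lay apart from all others, optic nerve libraries were split between 2 at 0 and 2 with 15 and 31 counts, and brain had 10 counts in library 5 alone. Spic rose in sciatic nerve against brain (log2 fold change 8.91, SE 1.17, edgeR adjusted p = 1.77e-05) and against optic nerve (6.16, SE 1.09, edgeR adjusted p = 6.97e-04). Without brain library 5, which leaves brain at 0 counts, the first was 12.71 (adjusted p = 5.61e-05), a fitted value that depends on the prior count, and without optic nerve library 3 the second was 7.36 (adjusted p = 6.64e-04). In optic nerve against brain the log2 fold change of 2.76 (SE 1.18) was not called (edgeR adjusted p = 0.0808). It was called without optic nerve library 1 (3.18, adjusted p = 0.0397), without optic nerve library 4 (3.16, adjusted p = 0.0417) and without brain library 5 (6.56, adjusted p = 0.0181), and was 1.55 without optic nerve library 3 (adjusted p = 0.396).

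Spi1, the gene of PU.1, was called in no comparison, at 351 ± 40.5 CPM in the sciatic nerve, 425 ± 47.4 CPM in the optic nerve and 345 ± 48.6 CPM in the brain, and Spib was at 0 in all libraries. Of the other Ets genes, Ets2 rose in all 3 comparisons (576 ± 71.1, 151 ± 25.3 and 24.3 ± 6.34 CPM in the sciatic nerve, optic nerve and brain), and Etv5 and Fli1 fell in both nerves against brain. Of 9 tested genes of the Spic and haem response list, 8 rose and Slc40a1 fell in sciatic nerve against brain, 6 rose and Slc40a1 fell in optic nerve against brain, and 6 rose in sciatic against optic nerve (medians 1.96, 0.87 and 0.85). Vcam1, an adhesion gene that Spic is known to control, averaged 108 ± 24.8 CPM in the sciatic nerve, 81.1 ± 18.7 CPM in the optic nerve and 10.4 ± 6.91 CPM in the brain. Bach1, the haem-sensing repressor of Spic, averaged 99.9 ± 13.8 CPM in the sciatic nerve, 60.7 ± 2.68 CPM in the optic nerve and 33.4 ± 12.5 CPM in the brain. Hmox1, the haem-degrading enzyme, averaged 1162 ± 422, 468 ± 90.9 and 30.5 ± 10.6 CPM in the same order. Slc40a1, the iron exporter ferroportin, went the other way, at 139 ± 22.6 CPM in the sciatic nerve, 77.5 ± 13.1 CPM in the optic nerve and 409 ± 126 CPM in the brain.

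Tfec was highest in sciatic nerve and lowest in optic nerve. It measured 23.1, 19.3, 20.0 and 28.2 CPM in the sciatic nerve, 0, 0, 0 and 0.0592 CPM in the optic nerve and 0.755, 5.20, 2.43, 0.189 and 0.418 CPM in the brain. The 3 tissues did not overlap, and the brain libraries were spread widely, from 5 to 146 counts. In sciatic nerve against brain Tfec rose by a log2 fold change of 3.64 (SE 0.75, edgeR adjusted p = 0.00101). Optic nerve held a single count over 4 libraries, and Tfec was 144-fold lower there than in brain by the ratio of counts (95% counting interval 25.7 to 5730, edgeR adjusted p = 8.33e-04). In sciatic against optic nerve the ratio was 1666-fold, with a counting interval from 298 to 65832 (edgeR adjusted p = 2.55e-05). Without brain library 2, the highest, the log2 fold change was 4.57 in sciatic nerve against brain (adjusted p = 1.22e-04) and the call in optic nerve against brain held (adjusted p = 0.00106). Without optic nerve library 4, which leaves that nerve at 0 counts, the adjusted p was 0.00399 against brain and 4.15e-04 in sciatic against optic nerve.

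The other MiT genes were less far apart. Mitf averaged 25.3 ± 6.38 CPM in the sciatic nerve, 10.6 ± 2.30 CPM in the optic nerve and 23.3 ± 4.32 CPM in the brain, and like Tfec it fell in optic nerve against brain (log2 fold change -1.14, SE 0.25) and rose in sciatic against optic nerve (1.26, SE 0.26). Tfeb fell in both nerves against brain, and Tfe3 rose in optic nerve against brain (0.54, SE 0.13). Of 7 tested targets of the family, 5 rose and 2 fell in sciatic nerve against brain (median log2 fold change 3.12), 3 rose and 1 fell in optic nerve against brain (2.88), and 3 rose and 4 were not called in sciatic against optic nerve (0.56). Acp5, the tartrate-resistant phosphatase of osteoclasts, averaged 41.7 ± 14.0 CPM in the sciatic nerve, 2.93 ± 1.65 CPM in the optic nerve and 0.0569 ± 0.091 CPM in the brain. Atp6v0d2, a proton pump subunit of osteoclasts and macrophages, averaged 11.3 ± 1.59 CPM in the sciatic nerve and 0.0444 ± 0.0888 CPM in the optic nerve with 0 counts in brain, and the osteoclast protease gene Ctsk was at 0.507 ± 1.01 CPM in the sciatic nerve and not tested.

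**Figure D2:**
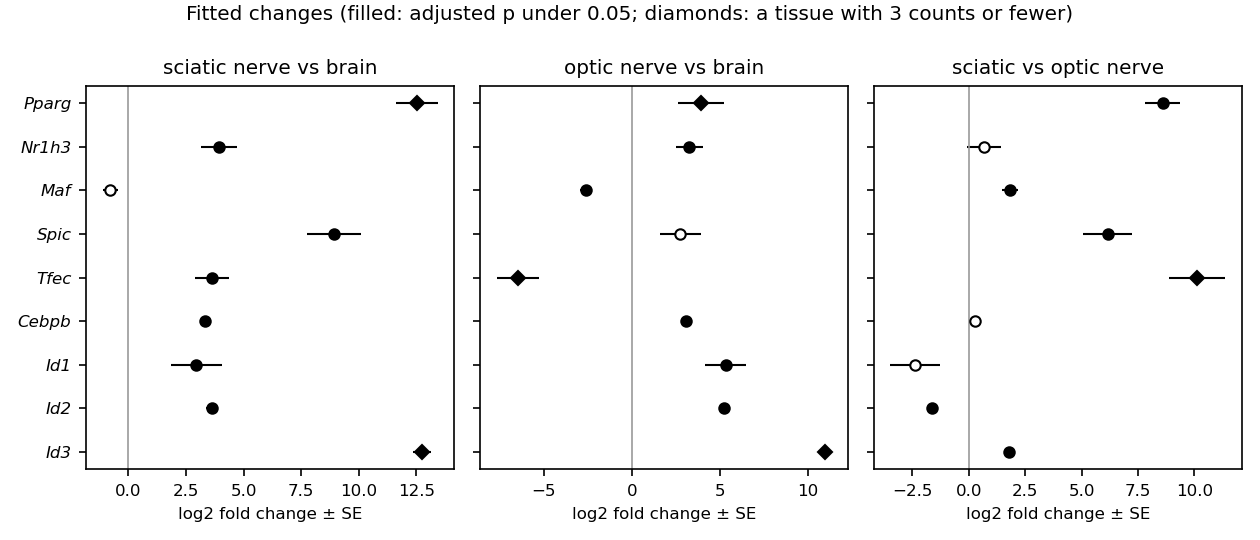
Fitted log2 fold changes with SE of the 9 genes in 3 comparisons; filled points have an edgeR adjusted p under 0.05, and diamonds mark genes with 3 counts or fewer in a tissue, whose fitted value depends on the prior count and whose fold is given in the text as a bound or a ratio. Maf lies left of 0 in both comparisons with brain and Tfec in optic nerve against brain, while Id1 and Id2 lie left of 0 in sciatic against optic nerve.

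The 3 Id genes were all higher in the nerves than in brain, with different nerves on top. Id2, which innate lymphoid cells and some dendritic cells need, measured 414, 471, 433 and 505 CPM in the sciatic nerve, 1521, 1380, 1778 and 1007 CPM in the optic nerve and 45.0, 51.1, 28.6, 35.7 and 25.9 CPM in the brain. The 3 tissues did not overlap, and optic nerve was highest. The log2 fold change was 3.61 (SE 0.22, edgeR adjusted p = 4.24e-09) in sciatic nerve against brain, 5.25 (SE 0.24, edgeR adjusted p = 5.10e-10) in optic nerve against brain and -1.64 (SE 0.22, edgeR adjusted p = 6.36e-05) in sciatic against optic nerve. Lymphoid markers were low in all tissues, with a summed level over 8 genes of 0.131 to 1.01 CPM in the sciatic nerve, 3.18 to 16.5 CPM in the optic nerve and 27.3 to 55.2 CPM in the brain, and Cd3e, Cd8a and Ncr1 at 0 in all 13 libraries. In brain 6 of the 8 had 0 counts, so the sum there came from Il7r and Gata3 alone. Only Il7r of the list was tested.

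Id3, known from Kupffer cells, the resident macrophages of the liver, was the reverse in the nerves. It measured 120.8, 112.4, 102.1 and 87.7 CPM in the sciatic nerve, 26.2, 34.0, 32.6 and 30.5 CPM in the optic nerve, and 1 count in brain library 3 with 0 in the other brain libraries. The 3 tissues did not overlap, with sciatic nerve on top. By the ratio of counts Id3 was 11975-fold higher in sciatic nerve than in brain (95% counting interval 2149 to 473083, edgeR adjusted p = 3.09e-12) and 3480-fold higher in optic nerve than in brain (624 to 137514, edgeR adjusted p = 3.63e-11). In sciatic against optic nerve the log2 fold change was 1.78 (SE 0.21, edgeR adjusted p = 1.97e-05). Without brain library 3, brain held 0 counts of Id3. Id3 and Id2 differed between the nerves in opposite directions.

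Id1 was the lowest of the 3. It measured 1.83, 0.969, 0.0720 and 0.400 CPM in the sciatic nerve, 3.37, 5.49, 4.41 and 3.85 CPM in the optic nerve and 0, 0, 0.140, 0.341 and 0 CPM in the brain. Optic nerve libraries lay above all others, and sciatic nerve library 3, with 1 count, lay within the brain range. Id1 rose in optic nerve against brain (log2 fold change 5.32, SE 1.17, edgeR adjusted p = 0.00270). Without brain library 4 it was 6.66 there (adjusted p = 0.00138) and 4.29 in sciatic nerve against brain (adjusted p = 0.00932). The call in sciatic nerve against brain (2.95, SE 1.09, edgeR adjusted p = 0.0372) was lost under 11 of 18 other settings, among them without sciatic nerve library 1 (2.19, adjusted p = 0.142). In sciatic against optic nerve the log2 fold change was -2.38 (SE 1.11, edgeR adjusted p = 0.150), with a 95% interval from -4.74 to -0.01, although the libraries did not overlap. It was -3.14 without sciatic nerve library 1 (adjusted p = 0.116). With only these tissues in the fit it was -2.40 and called (adjusted p = 0.0376).

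**Figure D3:**
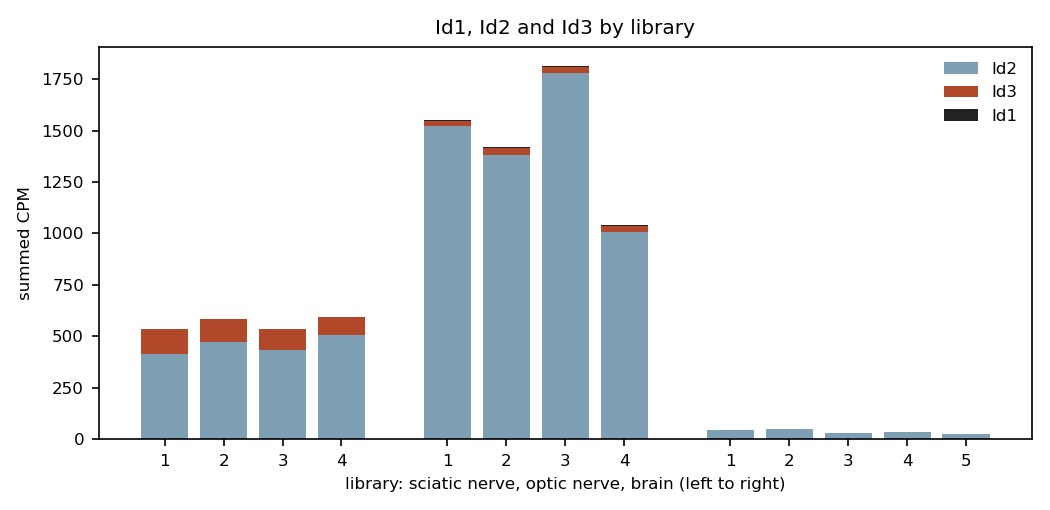
Summed CPM of Id1, Id2 and Id3 in each of the 4 sciatic nerve, 4 optic nerve and 5 brain libraries, stacked by gene. The sum is 535 to 593 CPM in the sciatic nerve, 1041 to 1815 CPM in the optic nerve and 25.9 to 51.1 CPM in the brain, and Id3 makes up 14.8% to 22.5% of it in sciatic nerve.

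Together the 3 genes reached 535 to 593 CPM in the sciatic nerve, 1041 to 1815 CPM in the optic nerve and 25.9 to 51.1 CPM in the brain. Id3 made up 14.8% to 22.5% of that sum in sciatic nerve libraries, 1.69% to 2.93% in optic nerve libraries and at most 0.162% in brain libraries, and Id2 made up nearly all the rest. The E proteins that Id proteins bind changed less. In sciatic nerve against brain the 3 tested had log2 fold changes from -0.39 to 0.10 without a call. In optic nerve against brain Tcf4 fell (84.4 ± 21.0 CPM in the optic nerve and 215 ± 49.3 CPM in the brain, log2 fold change -1.35, SE 0.20), and so did Tcf12 (-0.82, SE 0.26). Both rose in sciatic against optic nerve (0.96, SE 0.21, and 0.92, SE 0.27), and Tcf3 was called in no comparison.

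Of 14 tested genes of BMP and TGF-beta signalling, 2 rose and 10 fell in sciatic nerve against brain, 2 rose and 8 fell in optic nerve against brain, and 2 rose and 5 fell in sciatic against optic nerve (median log2 fold changes -1.55, -0.89 and -0.58). The 2 that rose in all of them were a ligand and a receptor. Bmp2 averaged 406 ± 84.4 CPM in the sciatic nerve and 14.4 ± 5.96 CPM in the optic nerve and had 0 counts in all brain libraries, which makes it at least 15307-fold higher in sciatic nerve than in brain. Acvrl1, the type I receptor ALK1, averaged 131 ± 25.8 CPM in the sciatic nerve, 82.7 ± 11.3 CPM in the optic nerve and 39.7 ± 6.46 CPM in the brain. The receptor genes Bmpr2 and Acvr1 and the signal carriers Smad1 and Smad5 fell in both nerves against brain, Smad5 by 1.44 (SE 0.38) and 1.55 (SE 0.38) in log2. Smad7, an inhibitor that the pathway itself induces, averaged 2.79 ± 2.08 CPM in the sciatic nerve, 34.8 ± 1.33 CPM in the optic nerve and 48.4 ± 6.44 CPM in the brain, and fell in sciatic nerve against both other tissues.

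Cebpb was high in both nerves. It measured 810, 578, 658 and 583 CPM in the sciatic nerve, 511, 509, 652 and 486 CPM in the optic nerve and 60.1, 99.3, 60.2, 51.8 and 54.1 CPM in the brain. All nerve libraries lay above all brain libraries, and the nerves overlapped. The log2 fold change was 3.34 (SE 0.20, edgeR adjusted p = 4.10e-09) in sciatic nerve against brain and 3.05 (SE 0.20, edgeR adjusted p = 2.46e-08) in optic nerve against brain. Between sciatic and optic nerve it was 0.28 (SE 0.20, edgeR adjusted p = 0.371), with a 95% interval from -0.15 to 0.72. On GENCODE vM21, Cebpb shares 312 exonic bases with Tmem189 on the opposite strand, and the sources used here do not say whether the counting used strand. Tmem189 held 4602 counts in the sciatic nerve, 3302 in the optic nerve and 4624 in the brain, beside 38625, 39509 and 7539 counts for Cebpb in the same order. How many of them lie in the shared bases was not tested.

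The C/EBP relatives differed among themselves. Cebpa, which monocyte precursors need, averaged 22.1 ± 2.85 CPM in the sciatic nerve, 79.9 ± 13.8 CPM in the optic nerve and 76.6 ± 15.5 CPM in the brain, and fell in sciatic nerve against both. Cebpd averaged 181 ± 55.1, 84.7 ± 13.2 and 84.9 ± 19.1 CPM in the same order and rose in sciatic nerve against both (log2 fold change 1.09, SE 0.20 against brain, and 1.09, SE 0.22 against optic nerve). Ddit3 (CHOP), a stress-induced member that dimerises with the others, averaged 47.5 ± 14.3 CPM in the sciatic nerve, 181 ± 33.5 CPM in the optic nerve and 19.3 ± 7.15 CPM in the brain. It was called in all 3 comparisons. Like Cebpb it rose in both nerves against brain, and it fell in sciatic against optic nerve. Cebpg and Cebpz fell in sciatic nerve against both other tissues.

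Of 7 tested genes known as C/EBPβ targets, 6 rose and 1 was not called in sciatic nerve against brain, 5 rose and 2 were not called in optic nerve against brain, and 5 rose and 2 were not called in sciatic against optic nerve. The median log2 fold changes, with genes at 0 counts in brain set to their bound, were 9.33, 6.85 and 1.94. Il1b, interleukin 1β, averaged 7095 ± 555 CPM in the sciatic nerve, 1946 ± 368 CPM in the optic nerve and 3.35 ± 1.85 CPM in the brain. Il6 averaged 134 ± 20.2 CPM in the sciatic nerve, 13.3 ± 4.98 CPM in the optic nerve and 11.4 ± 6.16 CPM in the brain, and was called in sciatic nerve against both but not in optic nerve against brain. Ptgs2, the inducible cyclooxygenase, had 0 counts in brain and averaged 302 ± 84.6 CPM in the sciatic nerve and 78.8 ± 18.8 CPM in the optic nerve. The lipocalin gene Lcn2 was at 0 in all libraries, and Arg1, arginase 1, was at 0.625 ± 0.758, 0.363 ± 0.726 and 0.583 ± 0.557 CPM in the sciatic nerve, optic nerve and brain without a call. Several of these genes are also induced by cell stress. Atf3, on the immediate early list, averaged 3097 ± 507 CPM in the sciatic nerve, 2881 ± 280 CPM in the optic nerve and 17.7 ± 4.00 CPM in the brain.

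**Figure D4:**
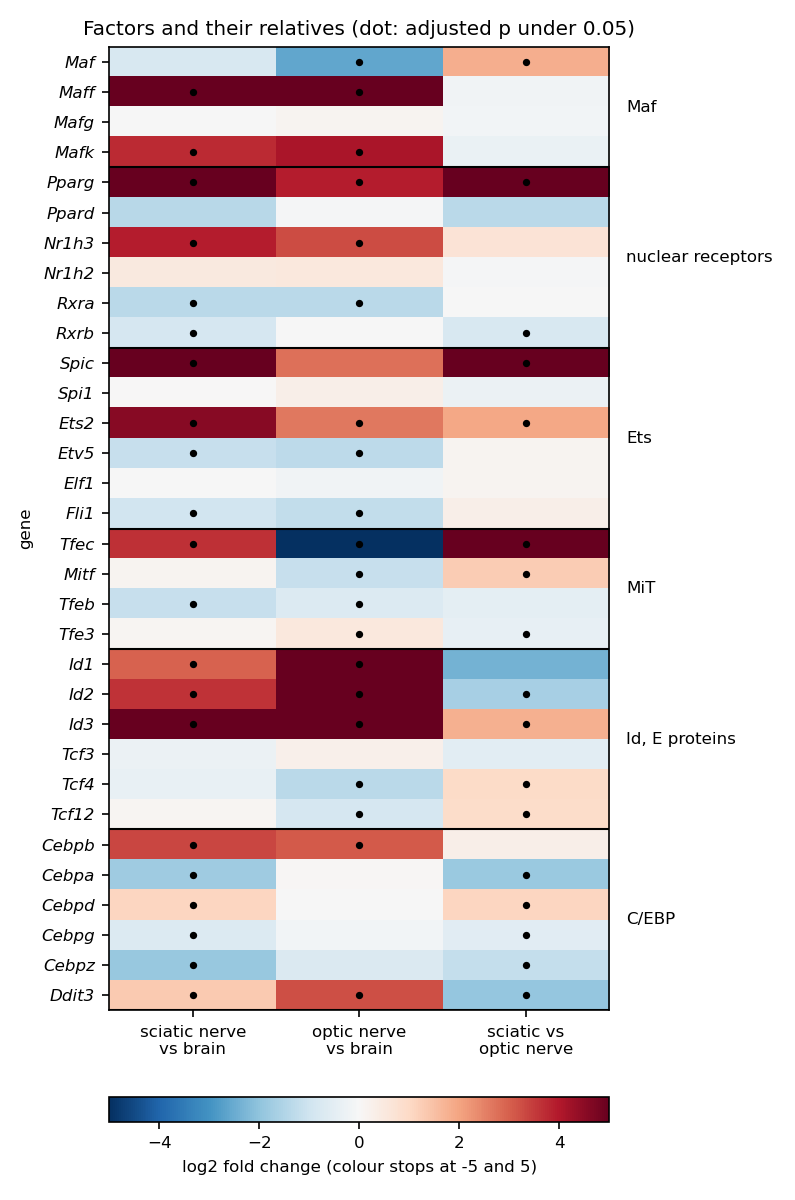
Fitted log2 fold changes of the 9 genes and of their family relatives or partners in 3 comparisons, as colours that stop at -5 and 5; dots mark an edgeR adjusted p under 0.05. Within each family the rows differ: Maff and Mafk are higher in both nerves than in brain while Mafg is not called. Mitf has the direction of Tfec at a smaller size in both comparisons with optic nerve. In sciatic nerve against brain Tfec is higher and Mitf is not called. Cebpa and Cebpd differ in opposite directions in sciatic nerve.

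**Figure D5:**
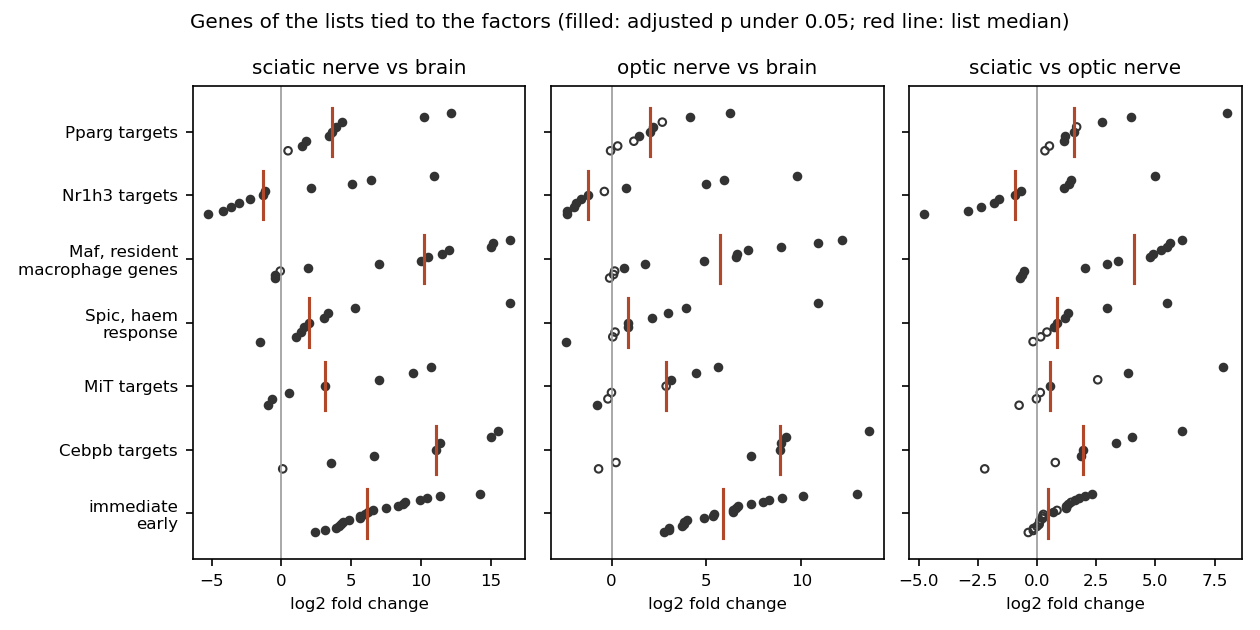
Fitted log2 fold changes of the tested genes of 7 lists in 3 comparisons, each point a gene; filled points have an edgeR adjusted p under 0.05 and red lines are list medians. Values of genes with 0 counts in brain depend on the prior count and are no bounds; the immediate early genes all lie right of 0 in both comparisons with brain, and the Nr1h3 targets lie on both sides in all 3.

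Levels can be compared between genes per length. Divided by the exonic length on GENCODE vM21, which may not be the authors' annotation, Cebpb had the highest level of the 9 in sciatic nerve at 437 CPM per kb, ahead of Id2 at 187 and Id3 at 59.1 CPM per kb. Maf at 29.8, Pparg at 13.2 and Spic at 11.9 CPM per kb followed. Tfec at 4.05, Nr1h3 at 1.36 and Id1 at 0.705 CPM per kb were lowest. In optic nerve Id2 came first at 583 CPM per kb, before Cebpb at 359, Id3 at 17.2 and Maf at 8.43 CPM per kb. In brain Maf led at 51.3 CPM per kb, close to Cebpb at 43.3 and before Id2 at 15.3 CPM per kb, and the other 6 were at most 0.321 CPM per kb.

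On mm10 the genes lie on 6 chromosomes. Tfec (chr6:16833373-16898441) and Pparg (chr6:115360951-115490399) share chromosome 6, and Nr1h3 (chr2:91184061-91202834), Id1 (chr2:152736251-152737410) and Cebpb (chr2:167688915-167690418) share chromosome 2. Id3 lies at chr4:136143497-136145755, Maf at chr8:115682942-115707794, Spic at chr10:88674772-88685015 and Id2 at chr12:25093799-25097140. Maf and Nr1h3 overlap exons of the noncoding genes Gm15655 and Gm13783, which held 0 and 9 counts over all libraries.

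For each gene, the 3 of 8845 other genes with the most similar pattern over the 13 libraries were named by the root mean square difference of centred log2 CPM. Cebpb had the closest neighbours, with Nlrp3 at 0.29, Capg at 0.31 and Cxcl16 at 0.33. Nlrp3, the inflammasome sensor gene, averaged 363 CPM in the sciatic nerve, 303 CPM in the optic nerve and 33.5 CPM in the brain. Next came Id2, with Osm at 0.36, Il1a at 0.40 and F3 at 0.49. Il1a, interleukin 1α, averaged 2085 CPM in the sciatic nerve, 5376 CPM in the optic nerve and 124 CPM in the brain, the same order of tissues as Id2. Maf was nearest to Tnfrsf17 at 0.39, Tbcel at 0.44 and A930005H10Rik at 0.47. Tnfrsf17, the plasma cell receptor gene of BCMA, averaged 25.5 CPM in the sciatic nerve, 7.01 CPM in the optic nerve and 37.8 CPM in the brain.

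The other genes had more distant neighbours. Nr1h3 was nearest to Tsc22d1 at 0.53, Lsp1 at 0.56 and Zswim4 at 0.56. Id3 was nearest to Phlda1 at 0.54, Adgre5 at 0.58 and Lyz1 at 0.60, and Pparg to A4galt at 0.60, Enpep at 0.64 and Ednrb at 0.64. Ednrb, an endothelin receptor gene, averaged 738 CPM in the sciatic nerve, 4.09 CPM in the optic nerve and 1.89 CPM in the brain. Spic was nearest to Hepacam2 at 0.92, Cd2 at 1.06 and Steap4 at 1.08, and Id1 to Odc1 at 0.94, Rrad at 0.94 and Zfp593 at 0.98. Tfec stood furthest from any other gene, with Lsr at 1.41, Epor at 1.52 and Cxcr3 at 1.55. The distance is not scaled, so counting noise adds to it in genes with few counts, such as Tfec, Spic and Id1. The part of counting noise in this ranking was not tested. Lsr averaged 13.7 CPM in the sciatic nerve, 0.290 CPM in the optic nerve and 0.636 CPM in the brain.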

How the data were processed

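RNA sequencing libraries of macrophages from sciatic nerve (4) and optic nerve (4) and of brain microglia (5) were analysed as raw read counts per gene deposited by the authors. Per the submitters' processing notes, reads were aligned to mm10 with STAR and counted with featureCounts 1.5.1; the sources used here do not give the STAR version, annotation, strand setting or handling of multi-mapping reads. The 5 brain columns were assigned by elimination, and 0 columns of per-sample values were not used.

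Genes were filtered with filterByExpr, which left 13246 of 48587, scaled by TMM and tested in edgeR 4.0.16 (R 4.3.3) in 1 quasi-likelihood fit of all 13 libraries with tissue as factor. A gene was called at a Benjamini-Hochberg adjusted p under 0.05. The SE of a log2 fold change is its size divided by the square root of the F statistic of that test. The 95% intervals of log2 fold changes are built from this SE, so both restate the test. CPM are counts per 1e6 of the scaled library size, and log2 CPM used a prior count of 2. Floors are 3 counts over a group, and 95% counting intervals and floors cover counting error only. The test was checked on simulated counts. Over the 3 comparisons it recovered 15% to 23.6% of changes of 1 in log2 and 53.9% to 63% of changes of 2. Of its calls 1.2% to 2.92% were false. Far fewer genes were changed in the simulation than were called in these data, so these rates need not hold for the reported fit. A gene that was not called may still differ. No pair of libraries of a tissue agreed within sampling noise (lowest chi-square per degree of freedom 15.7).

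The 9 genes, the 29 gene lists and the tests were chosen with earlier results of these data known. All 9 genes are named. The rule for lists allowed up to 4 genes with the largest called changes, plus genes whose role is needed. Not all of those largest are named, and genes such as F13a1 and Lyve1 were named after their values were seen. For each of the 9, the 3 genes of most similar pattern with a mean of 10 CPM or more in a tissue are named. Alternatives were DESeq2 1.42.0, its size factors, library totals, no filter, only the tissues compared, a replicate block, and leaving out libraries.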

Additional observations from a re-analysis of the deposited data

Results flagged for a closer look

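For each of the 9 genes and each tissue with a count, the highest or lowest library was set against the others by Dixon's test, in 26 groups, of which chance flags about 5%. It flagged 6. Cebpb measured 652 CPM in optic nerve library 3, against 486 to 511 CPM in the other optic nerve libraries, and 99.3 CPM in brain library 2, against 51.8 to 60.2 CPM in the other brain libraries. Nr1h3 measured 1.34 CPM in optic nerve library 3, against 2.37 to 2.43 CPM in the other optic nerve libraries. Spic measured 0.418 CPM in brain library 5, from 10 counts, with 0 in the other brain libraries. Tfec at 0.0592 CPM in optic nerve library 4 and Id3 at 0.0466 CPM in brain library 3 each rest on 1 count, with 0 in the other libraries of the tissue. In these last 3 groups 1 library with a count among zeros fixes the outcome, so the 5% applies to the groups without such zeros. Without brain library 5, Spic in optic nerve against brain had a log2 fold change of 6.56 and was called (edgeR adjusted p = 0.0181), against 2.76 and no call with it.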

How the results depend on the processing

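Over 20 other settings, 13 of which leave out 1 library, the results of the 9 genes in 3 comparisons were recomputed 518 times. In 491 the direction and the side of the threshold were those reported, in 18 a call was lost, in 9 a call was gained, and a direction reversed in 0. The lost calls were Id1 in sciatic nerve against brain (11) and Pparg in optic nerve against brain (7). Those gained were Maf in sciatic nerve against brain (5), Spic in optic nerve against brain (3) and Id1 in sciatic against optic nerve (1). With library totals, 4942 genes fell in sciatic nerve against brain, 3219 in the reported fit, and 1 of the 9 genes, Maf, fell. Maf also fell without a filter on low counts (1 of 9), and leaving out single libraries gave 0 to 1. With only the tissues compared in the fit, 1 of the 9 fell in optic nerve against brain, since Tfec was not tested there, and 2 fell in sciatic against optic nerve. The cause of the other changes was not tested.

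Replicate numbers did not pair the sciatic and optic nerve libraries, whose same-numbered deviations correlated at -0.05, 0.02, -0.07 and -0.06. With a replicate block, 1455 genes rose and 1385 fell in sciatic against optic nerve, against 1447 and 1445 without it, and 5 of the 9 genes rose and 1 fell in both fits. No paired analysis was possible for brain because nothing ties the numbers of its columns to the replicate numbers of the labels. Nr1h3 and Id1, Pparg, Spic and Tfec outside sciatic nerve, and Id3 in brain rest on few counts, which limits their folds.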
